A study of Sus scrofa with 4 samples.

Results

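The data described here are the messenger RNA levels of 6 genes of skin desquamation in pig pancreatic cells, 6 of 30282 gene identifiers counted. They were picked by symbol because earlier results of these data had shown them in organoids, so their levels are given as descriptions without a test. They are the proteases KLK5 and KLK7, the inhibitor SPINK5, and the adhesion genes CDSN, DSG1 and DSC1, and all 6 were found. The measurement was droplet-based single-cell RNA sequencing, in which each captured molecule is counted once by a unique molecular identifier (UMI). Levels are given as CPM, the UMIs of a gene scaled to a total of 1e+06 UMIs in the same cells.

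Porcine pancreatic ductal organoids (PPDO) are 3-dimensional epithelial cultures that grow from pieces of pancreatic duct. The study took its PPDO lines from a late postnatal and an adult pig at different passages, and which of these each library holds is not given in the labels. They were kept in extracellular matrix (Cultrex) with a medium that holds, among other factors, EGF, FGF10, R-spondin1, noggin, WNT3a, gastrin, prostaglandin E2, nicotinamide and an inhibitor of TGF-beta receptors. The primary pancreas libraries came from wild-type and INS-eGFP pigs, the latter carrying a green fluorescent protein under the pig insulin promoter. By the methods, ducts were picked by hand for the first primary sample, and cells binding the lectin DBA and eGFP-positive cells were sorted and pooled with whole suspension for the second. It was assumed that these are the replicate numbers of the titles. Each group had 2 libraries, named PPDO 1 and 2 and primary pancreas 1 and 2. By the study both primary pigs were late postnatal, the stage of the younger PPDO line, so age overlaps between the groups. Culture, animal and sample preparation change together with the group and cannot be told apart.

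In the outer epidermis, corneocytes are held together by corneodesmosomes, junctions built from the cadherins desmoglein 1 (DSG1) and desmocollin 1 (DSC1) and the secreted glycoprotein corneodesmosin (CDSN). Kallikrein 5 (KLK5, trypsin-like) and kallikrein 7 (KLK7, chymotrypsin-like) are secreted as inactive precursors, and KLK5 can activate both itself and KLK7. Active KLK7 cuts CDSN and DSC1, and KLK5 also cuts DSG1, so that cells are shed, and LEKTI, the product of SPINK5, holds these proteases in check. Loss of SPINK5 in people causes Netherton syndrome, a skin barrier disease. Pancreatic ducts are lined by a simple epithelium that forms no cornified layer.

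On the pig assembly Sscrofa11.1, in the RefSeq annotation, KLK5 lies at chr6:55618094-55627518 and KLK7 at chr6:55644627-55649000, with 17108 bases and the gene KLK6 between them. DSC1 (chr6:115042225-115076097) and DSG1 (chr6:115237836-115272944) are also neighbours, 161738 bases apart with 0 protein-coding genes between them. SPINK5 lies at chr2:149309482-149382286 and CDSN at chr7:23520142-23524372. Reads were counted on each gene and, for KLK5, CDSN, DSG1 and DSC1, also on an added extension of its 3' end, and both were summed. The extension made up most of the KLK5 signal, with 584 of 916 UMIs in PPDO 1 and 1050 of 1475 in PPDO 2. KLK4 lies 579 bases from KLK5 and KLK6 2464 bases, and overlap of the extension with a neighbour was not tested. Without its extension KLK5 had a mean of 1.40 CPM over the PPDO libraries. KLK7 and SPINK5 had no extension.

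After filtering, 8885 and 7337 cells of PPDO 1 and 2 and 5671 and 4261 cells of primary pancreas 1 and 2 remained, with medians of 34176, 34459, 10169 and 23651 UMIs per cell. Pairs of libraries shared between 10 and 23 cell barcodes. Of the 8 ductal markers matched, 5 exceeded 1 CPM in both PPDO libraries, with a summed level of 971 CPM in PPDO 1 and 867 CPM in PPDO 2. The chloride channel gene CFTR, which defines mature ducts, was at 1.06 and 0.644 CPM in the PPDO cells without a protease UMI. The 6 basal epithelial markers matched summed to 8844 and 11512 CPM, and the 8 suprabasal squamous markers matched to 533 and 1067 CPM. All 9 stellate markers were under 1 CPM in both PPDO libraries. Of 13 endocrine markers 11 were under 1 CPM in both, of 11 acinar markers 8, and of 9 immune markers 6, although the immune list summed to 6608 and 6526 CPM through its remaining members.

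All 6 genes were detected in both PPDO libraries, at CPM above those of both primary libraries, where the highest was SPINK5 in primary pancreas 2 at 0.491 CPM (0.373 to 0.634). KLK7 had the most UMIs, 7479 in PPDO 1 (24.8 CPM) and 30303 in PPDO 2 (115 CPM). KLK5 was at 3.04 CPM in PPDO 1 and 5.62 CPM in PPDO 2. SPINK5 was at 14.7 CPM and 15.5 CPM, the closest agreement between the libraries of the 6 genes. Among the adhesion genes, DSG1 was at 3.93 and 9.30 CPM, DSC1 at 0.890 and 2.56 CPM and CDSN at 1.49 and 2.10 CPM. The mean over the 2 PPDO libraries was 70.2 ± 64.1 CPM for KLK7, 4.33 ± 1.82 for KLK5, 15.1 ± 0.535 for SPINK5, 6.62 ± 3.80 for DSG1, 1.72 ± 1.18 for DSC1 and 1.79 ± 0.430 for CDSN (SD, n = 2). UMIs are tags from the 3' end and were not scaled by gene length, so levels are compared between libraries, clusters or cells for 1 gene and not between genes.

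**Figure D1:**
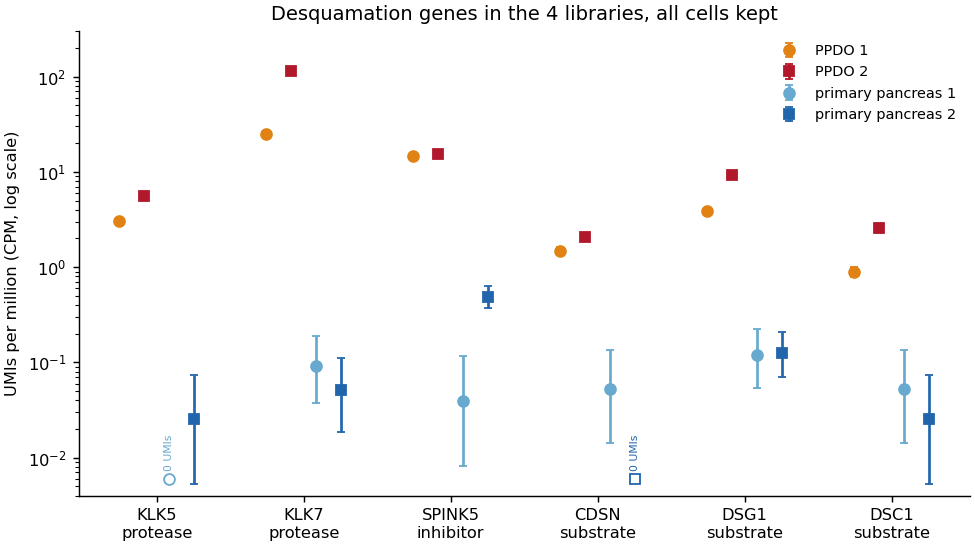
Level of each of the 6 genes in each library, in CPM of all cells kept (log scale), with exact 95% Poisson intervals that cover counting error only. For each gene the 2 PPDO libraries lie above the 2 primary libraries, and open symbols at the bottom mark 0 UMIs (KLK5 in primary pancreas 1, CDSN in primary pancreas 2).

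The PPDO libraries differed most in KLK7, which was 4.65 times higher in PPDO 2 (counting interval 4.53 to 4.77). DSC1 followed at 2.87 times (2.49 to 3.32), DSG1 at 2.37 times (2.21 to 2.54), KLK5 at 1.85 times (1.70 to 2.01; 1.47 times without its extension) and CDSN at 1.41 times (1.24 to 1.60). SPINK5 differed by 1.05 times (1.01 to 1.10). Over all cells, both proteases and the adhesion genes were thus higher in PPDO 2 while the inhibitor stood nearly level. These totals mix levels with the share of cells in cluster 6, the cluster richest in the 6 genes (3.59% and 5.14%, described below). Inside cluster 6 SPINK5 was at 304 and 239 CPM and CDSN at 28.6 and 24.6 CPM, both lower in PPDO 2. The CDSN ratio also rests on few cells, with 4 and 9 cells holding 50% of its UMIs. The same holds for SPINK5, with 14 and 13 cells holding 50% of its UMIs, and for DSC1, with 12 and 20 cells. Counting intervals do not cover this spread between cells, so the near-equality of SPINK5 is less firm than its interval. Among 10272 genes with at least 5 CPM, 0.935% were more than 2 times higher in PPDO 2 and 1.08% more than 2 times lower, and the median ratio was 0.985. KLK5, CDSN and DSC1 had means under 5 CPM, and among the 20910 genes with at least 50 UMIs these shares were 2.41% and 4.01%. With 1 library on each side this is a comparison of these libraries, not of ages or passages.

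In primary pancreas the 6 genes together gave 27 UMIs in 5671 cells of primary pancreas 1 and 85 UMIs in 4261 cells of primary pancreas 2. KLK5 had 0 and 3 UMIs, KLK7 7 and 6, SPINK5 3 and 58, CDSN 4 and 0, DSG1 9 and 15, and DSC1 4 and 3. Clusters of primary cells were named after marker lists, which gave ductal-like, acinar-like, endocrine-like, endothelial-like, stellate-like, immune-like and schwann-like cells, and 3 clusters stayed unnamed. In ductal-like cells (2165 and 1188 cells), KLK7 had 1 UMI in all, KLK5 had 1, CDSN 2, SPINK5 5, DSC1 5 and DSG1 13. Pooled over libraries, the CPM in PPDO was 4600 times that in ductal-like cells for KLK7 (counting interval 826 to 181684) and 291 times for KLK5 (52.2 to 11502). The same ratio was 207 for SPINK5 (88.6 to 637), 60.8 for CDSN (16.8 to 502), 33.9 for DSG1 (19.8 to 63.8) and 22.9 for DSC1 (9.76 to 70.6). The depth of the ductal-like cells therefore bounds the ratio of KLK7 and KLK5 poorly from above.

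The few primary UMIs were not spread evenly. Of the 58 SPINK5 UMIs of primary pancreas 2, 54 were in endocrine-like cells, in 41 of 2203 cells (1.86%, median 39459 UMIs per cell), which is 0.635 CPM (0.477 to 0.829). Ductal-like cells of the same library held 3 SPINK5 UMIs in 1188 cells (0.118 CPM, 0.0244 to 0.346, median 20558.5 UMIs), so that the counting intervals of the levels do not overlap. The endocrine-like clusters 2 and 3, which carried insulin, held 32 and 18 of these UMIs, and no cell had more than 3. After each cell was thinned to 3000 UMIs, 5 of 2203 endocrine-like cells (0.227%) and 0 of 1188 ductal-like cells had a SPINK5 UMI, the latter with an upper exact 95% limit of 0.310%, and so few UMIs remained that these shares could not show the difference. All 7 KLK7 UMIs of primary pancreas 1 fell in 7 of the 252 cells of immune-like cluster 10, whose leading genes include GNLY, GZMH and CD3E of cytotoxic lymphocytes. At 3000 UMIs, 5 of 629 immune-like cells (0.795%) and 0 of 2052 ductal-like cells of that library had KLK7. At the same thinned depth, KLK7 was found in 2.19% and 6.99% of PPDO cells.

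Within PPDO, the 6 genes were rare and uneven. Cells were thinned to 10000 UMIs, which left out 522 and 176 shallower cells. KLK7 was then found in 3.54% of PPDO 1 and 10.4% of PPDO 2 cells, KLK5 in 2.46% and 4.52%, SPINK5 in 1.97% and 1.70%, DSG1 in 1.75% and 3.69%, CDSN in 0.717% and 0.866%, and DSC1 in 0.419% and 1.21%. Without thinning the KLK7 shares were 6.34% and 17.0%. A few cells carried most of the transcripts. The 1% of cells with the most SPINK5 (89 and 74 cells) held 91.8% and 94.0% of its UMIs, and 14 and 13 cells held 50% of them. For KLK7 that 1% held 81.0% and 53.6%, and the highest cell carried 431 and 839 UMIs. CDSN rested on the fewest cells, with 4 and 9 cells holding 50% of its UMIs and up to 117 and 70 UMIs in a cell. KLK5 was the exception, since its highest 1% held only 28.3% and 27.7% of UMIs and 224 and 222 cells were needed to reach 50%. Of the cells with KLK5, 77.6% and 67.9% had a single UMI. The counts are not corrected for free RNA, and its part in these single UMIs was not tested.

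PPDO cells were clustered with the 6 genes left out of the clustering. Clusters are given by number, and levels in them are descriptions, since genes that move with the 6 took part. Cluster 6 (319 of 8885 and 377 of 7337 cells, 3.59% and 5.14%) was led by TPRG1, PLA2G4E, KLK14, KRT23, SBSN and ABCA12, several of them genes of cornifying epithelium. It held 73.1% of all UMIs of the 6 genes in PPDO 1 and 70.5% in PPDO 2. KLK7 in cluster 6 was at 487 and 1431 CPM. SPINK5 reached 304 and 239 CPM there, DSG1 72.1 and 135 CPM, CDSN 28.6 and 24.6 CPM, and DSC1 17.0 and 35.8 CPM. KLK5 was at 12.9 and 24.6 CPM in cluster 6, which held only 16.5% and 24.5% of its UMIs against 80.2% and 86.8% for SPINK5. Markers of suprabasal squamous cells summed to 7595 and 12154 CPM in cluster 6, against 113 and 85.8 CPM in cluster 0, the most numerous one. The sum was higher still in cluster 8, at 9846 and 13137 CPM. Basal markers were not lost in cluster 6, where they summed to 13260.8 and 17204.5 CPM, against 7173 and 10068 CPM in cluster 0.

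**Figure D2:**
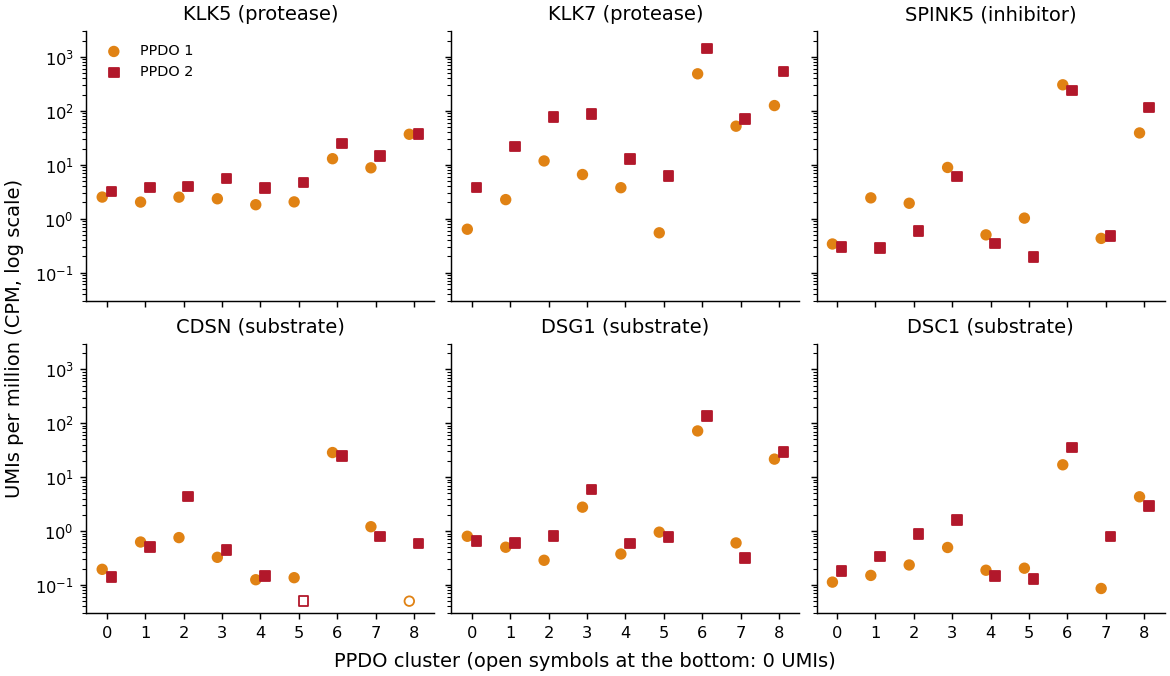
Level of each gene in the 9 PPDO clusters (CPM, log scale), 1 point per library and cluster. Cluster 6 is the highest for SPINK5, CDSN, DSG1, DSC1 and KLK7, cluster 8 is the highest for KLK5, and cluster 7 shows KLK7 and KLK5 with little SPINK5.

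Cluster 8 was small (36 and 94 cells, median 13548.5 UMIs) and led by S100A8, S100A12, SPRP, CNFN, KRT1, DMKN and KRTDAP. Levels of 5 of the 6 genes were lower there than in cluster 6 in both libraries. KLK7 was at 125 and 537 CPM, SPINK5 at 38.9 and 115 CPM, DSG1 at 21.6 and 29.3 CPM and DSC1 at 4.32 and 2.93 CPM, and CDSN had 0 and 1 UMIs. KLK5 was higher than in cluster 6, at 36.7 and 36.9 CPM. At 10000 UMIs CDSN was found in 0 of 24 and 0 of 67 cells of cluster 8, with upper exact 95% limits of 14.2% and 5.36%, and in 7.54% and 5.77% of cluster 6 cells, the latter with an interval of 3.61% to 8.68% in PPDO 2. The exact intervals overlap in both libraries, so a difference in the share was not detectable with these cells.

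Cluster 7 (328 and 195 cells) was led by SPP1, WFDC2, MMP7, GABRP and KRT4 and had the highest sum of ductal markers, 2543 and 2622 CPM against 632 and 502 CPM in cluster 6. It carried both proteases. KLK7 was at 51.9 and 70.3 CPM and KLK5 at 8.77 and 14.6 CPM, while SPINK5 was at 0.430 and 0.472 CPM and DSG1 at 0.602 and 0.315 CPM. There were 5 and 3 SPINK5 UMIs beside 604 and 447 KLK7 UMIs, which is 121 and 149 KLK7 UMIs per SPINK5 UMI (counting intervals 51.5 to 373 and 50.7 to 725). In cluster 6 the same quotient was 1.60 (1.53 to 1.67) and 5.99 (5.78 to 6.21). At 10000 UMIs, 18.8% and 19.5% of cluster 7 cells had KLK7, and 0.324% and 1.05% had SPINK5. SPINK5 was found in 0.194% and 0.232% of cluster 0 cells, where KLK7 was in 0.466% and 1.95%. In PPDO 2 the quotient was also high in cluster 2, at 131 (80.4 to 229), and in cluster 1, at 77.9 (47.0 to 140), intervals that overlap that of cluster 7, whereas in PPDO 1 it was 6.09 and 0.928 there. In cluster 0 there were 1.88 and 12.7 KLK7 UMIs per SPINK5 UMI (1.21 to 2.96 and 8.30 to 20.3). The 3 SPINK5 detections in thinned cells of cluster 7 (1 and 2 cells) are too few to set it apart from cluster 0, while the KLK7 shares of the clusters differ beyond counting error.

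The quotient of KLK7 to SPINK5 UMIs rose from 1.69 over all PPDO 1 cells (1.63 to 1.75) to 7.46 over all PPDO 2 cells (7.22 to 7.71). KLK7 outside cluster 6 was at 6.21 CPM in PPDO 1 and 37.2 CPM in PPDO 2, a ratio of 5.99, and inside it the ratio was 2.94. In cluster 3, led by GPNMB and MMP3, KLK7 went from 6.58 to 87.4 CPM and SPINK5 from 8.90 to 6.10 CPM. In cluster 2, led by the hypoxia-responsive genes ADM, VEGFA and NDRG1, KLK7 went from 11.8 to 76.3 CPM and SPINK5 from 1.93 to 0.583 CPM. Cluster 1, led by IGFBP6 and PDPN, went from 2.25 to 21.9 CPM for KLK7 and from 2.43 to 0.282 CPM for SPINK5. In each of these 3 clusters the SPINK5 level was lower and the KLK7 level higher in PPDO 2. Clusters 0, 4, 5 and 6 had the same directions. In clusters 7 and 8 SPINK5 went the other way, from 0.430 to 0.472 CPM and from 38.9 to 115 CPM. The SPINK5 levels of clusters 1, 2 and 3 rest on few cells, such as 74 UMIs in 21 cells of cluster 2 and 97 UMIs in 30 cells of cluster 1 in PPDO 1. The share of cells with SPINK5 at 10000 UMIs was 0.837% and 0.538% in cluster 2 and 2.83% and 2.13% in cluster 3, with overlapping intervals, and 0.992% (0.513% to 1.73%) and 0.123% (0.0149% to 0.443%) in cluster 1.

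By share of UMIs, cluster 3 came next to cluster 6 in SPINK5, with 14.2% and 6.77%, and in DSG1, with 16.6% and 10.9%. It held 18.3% and 13.5% of cells, and by level cluster 8 came next for both genes. In cluster 3 DSG1 was at 2.77 and 5.88 CPM and DSC1 at 0.495 and 1.62 CPM. Its KRTDAP level, 350 and 1037 CPM, lay between cluster 6 (6261 and 10200 CPM) and cluster 0 (10.1 and 19.6 CPM). The CDSN level in cluster 3, 0.325 and 0.444 CPM, also lay between cluster 6 (28.6 and 24.6 CPM) and cluster 0 (0.195 and 0.141 CPM). By share of CDSN UMIs, however, cluster 3 (5.13% and 3.64%) came after cluster 2 (6.47% and 22.0%). In the cycling clusters 4 (CENPF, TOP2A) and 5 (DTL, MCM3) the adhesion genes were each under 1 CPM in both libraries. They were also each under 1 CPM in clusters 0 and 1, so this was not particular to the cycling clusters. KLK5 was still at 1.81 and 3.73 CPM in cluster 4 and at 2.04 and 4.70 CPM in cluster 5. These KLK5 levels are near those of clusters 0, 1 and 2, which ranged from 2.03 to 2.51 CPM in PPDO 1 and from 3.20 to 3.97 CPM in PPDO 2.

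Co-detection was measured at 10000 UMIs per cell as the number of cells with both genes over the number that independent detection would give. KLK7 and SPINK5 shared 47 cells in PPDO 1 against 5.84 with independence (ratio 8.05) and 73 against 12.7 in PPDO 2 (ratio 5.74). KLK7 with DSG1 gave 9.87 and 5.85, KLK7 with CDSN 10.4 and 4.95, and KLK7 with DSC1 13.7 and 5.85. KLK5 gave 3.44 and 3.08 with SPINK5, 3.34 and 3.77 with DSG1, 2.71 and 3.21 with CDSN, and 5.80 and 2.79 with DSC1. KLK5 and KLK7 together gave 5.62 and 3.47. No order between the proteases is read from these ratios, since with 2 UMIs as the limit of detection the means over libraries were 17.6 for KLK5 and 12.5 for KLK7 with SPINK5, and 46.3 and 21.2 with CDSN. The cadherins gave 19.6 and 13.4 with each other, and with the inhibitor 13.2 and 13.3 (DSG1) and 15.9 and 18.9 (DSC1). Pairs with CDSN rested on few cells, since it shared 9 and 1 cells with SPINK5, 3 and 6 with DSG1, and 2 and 2 with DSC1.

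**Figure D3:**
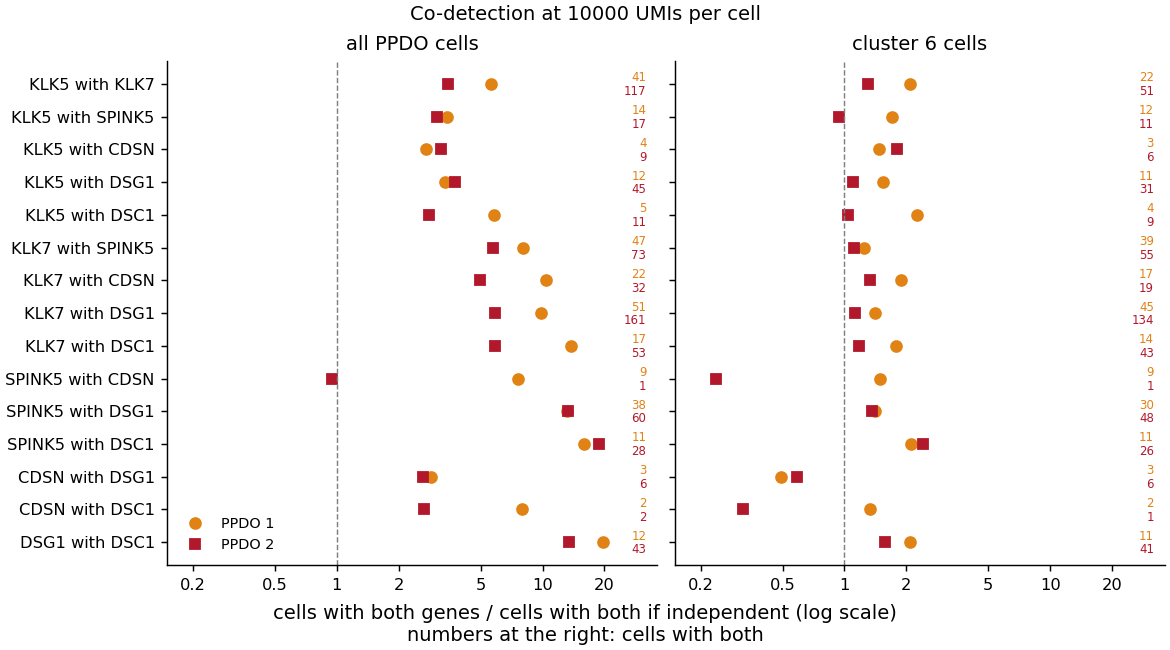
Co-detection ratio of each gene pair at 10000 UMIs per cell (log scale), over all PPDO cells (left) and in cluster 6 alone (right), with the number of cells holding both genes printed at the right. Over all cells the ratios lie above 1 except for SPINK5 with CDSN in PPDO 2, and in cluster 6 most lie between 1 and 2.5 while CDSN with DSG1 lies below 1 in both libraries.

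Within cluster 6 the ratios were lower. There the ratio of KLK7 with SPINK5 was 1.24 and 1.11, that of KLK7 with DSG1 1.41 and 1.12, and that of DSG1 with DSC1 2.07 and 1.57. Most cells with a protease had no detected partner. Of 461 and 953 cells with KLK5 or KLK7, 10.8% and 7.97% also had SPINK5, 18.0% and 22.7% had at least 1 of CDSN, DSG1 and DSC1, and 77.7% and 74.8% had neither. In cluster 6 the share with neither was 35.2% and 32.3%, and in cluster 7 it was 95.7% and 100% (66 of 69 and 50 of 50 cells). Clusters 0 to 5 were alike in this, at 84.3% to 100%, so it is not particular to cluster 7. An adhesion gene was found in 35.7% and 55.8% of all cluster 6 cells and in 1.62% and 1.58% of cluster 7 cells. Cells with 4 or more of the 6 genes numbered 10 and 34, the most in 1 cell was 5, and all 6 together were found in 0 cells. At these levels a gene missed in a cell is not shown to be absent from it.

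CDSN was less linked to the cadherins than these were to each other. Over all PPDO cells at 10000 UMIs its co-detection ratios still lay above 1, on few cells. They were 2.86 and 2.63 with DSG1 and 7.96 and 2.66 with DSC1. Over cells, Pearson's r of log-normalized levels was 0.00630 and 0.0540 between CDSN and DSG1, and 0.0315 and 0.00239 between CDSN and DSC1 (8885 and 7337 cells, which share library and differ in depth). By contrast it was 0.346 and 0.490 between DSG1 and DSC1, and 0.293 and 0.287 between CDSN and KLK7. In cluster 6 at 10000 UMIs, CDSN and DSG1 shared 3 cells against 6.11 with independence in PPDO 1 and 6 against 10.2 in PPDO 2. CDSN and DSC1 had no common direction there, with 2 cells against 1.51 in PPDO 1 and 1 against 3.12 in PPDO 2. Cells of cluster 6 with at least 2 UMIs of a gene were then compared, a choice made after these values were seen. There were 19 and 24 such cells for CDSN and 95 and 202 for DSG1, and 0 and 7 were in both sets.

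Cells of cluster 6 with CDSN were high in involucrin (IVL, a cornified envelope protein), at 2703 and 2338 CPM, against 475 and 897 CPM in cells with DSG1. KLK7 was at 2837 and 4867 CPM in the CDSN cells and at 618 and 1452 CPM in the DSG1 cells. The order was turned for KRT1 and KRT10, keratins of differentiating epidermis, and for KRTDAP, a protein of the spinous layer. KRT10 was at 52.2 and 50.8 CPM with CDSN and at 757 and 450 CPM with DSG1. KRT1 was at 0 and 0 CPM with CDSN and at 237 and 232 CPM with DSG1, though few cells carried it (5 and 19 DSG1 cells with 2 or more UMIs). KRTDAP was at 434 and 1720 CPM with CDSN and at 11195 and 14266 CPM with DSG1. KRT4, a keratin of moist stratified epithelia, had no common order, with 2.01 and 127 CPM beside CDSN and 35.8 and 72.8 CPM beside DSG1. The 6 basal markers split. Those of the anchorage to the basement membrane were higher beside CDSN, as ITGA6 was at 747 and 1014 CPM against 147 and 87.3 CPM, ITGB4 at 305 and 377 CPM against 80.4 and 54.1 CPM, and COL17A1 at 317 and 530 CPM against 147 and 98.6 CPM. The other 3 were lower beside CDSN, with KRT5 at 3022 and 11694 CPM against 15214 and 18018 CPM, KRT15 at 34.1 and 72.2 CPM against 404 and 172 CPM, and TP63, the basal transcription factor, at 141 and 238 CPM against 431 and 337 CPM. In cluster 6 cells with fewer than 2 DSG1 UMIs ITGA6 was at 751 and 679 CPM, so in PPDO 1 the CDSN cells stood level with them. KRT1 was at 0 and 0 CPM in those cells, as beside CDSN. In cells with fewer than 2 CDSN UMIs ITGA6 was at 482 and 254 CPM. SPINK5 was at 277 and 218 CPM beside CDSN and at 499 and 335 CPM beside DSG1. In cells with fewer than 2 CDSN UMIs SPINK5 was at 306 and 240 CPM, near its level beside CDSN. The SPINK5 level beside CDSN rested on few cells, since only 7 and 2 of the CDSN cells had 2 or more SPINK5 UMIs.

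**Figure D4:**
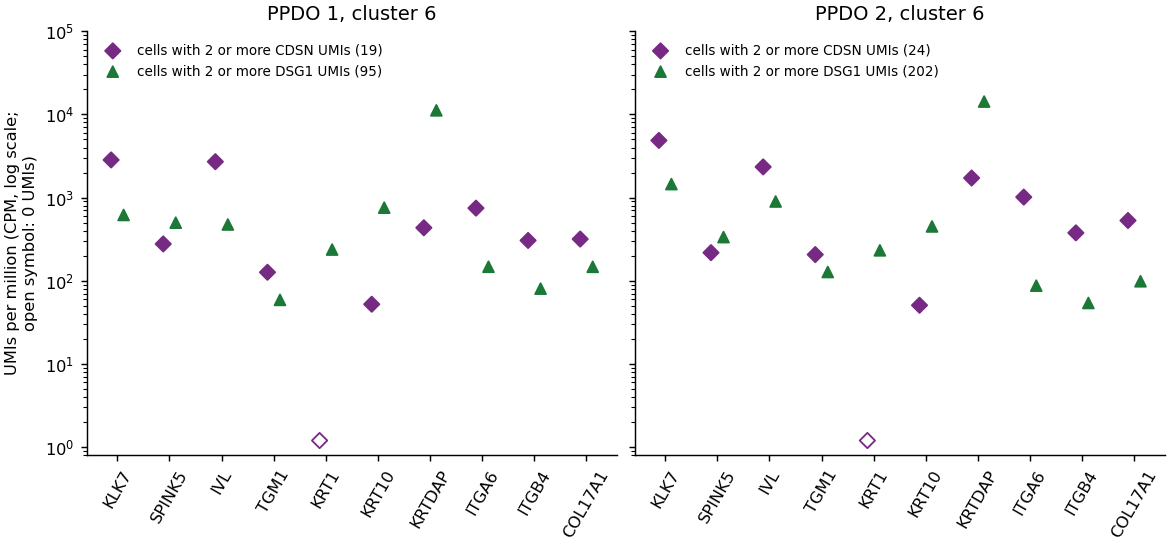
Levels (CPM, log scale) in cluster 6 cells with 2 or more CDSN UMIs (diamonds, 19 and 24 cells) and with 2 or more DSG1 UMIs (triangles, 95 and 202 cells). In both libraries KLK7, IVL, TGM1, ITGA6, ITGB4 and COL17A1 are higher in the CDSN cells and KRT1, KRT10 and KRTDAP in the DSG1 cells, and open symbols mark 0 UMIs.

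A second place of CDSN was cluster 2 of PPDO 2, which held 22.0% of its UMIs in that library at 4.41 CPM, against 0.756 CPM in PPDO 1. In the same cluster IVL was at 125 CPM in PPDO 2 and 51.0 CPM in PPDO 1, and KRTDAP at 35.6 and 24.3 CPM. DSG1 was at 0.801 and 0.287 CPM there.

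The genes most like the 6 were ranked by Pearson's r over cells between each gene and the summed 6, taking the lower of the 2 libraries, among 7706 genes with at least 10 CPM. The first 10 were TPRG1 (0.56), CYSRT1 (0.53), CNFN (0.51), S100A12 (0.51), SLPI (0.51), IVL (0.50), S100A8 (0.49), KRTDAP (0.48), KRT23 (0.47) and DMKN (0.47), against a median of -0.041 over all genes ranked. KLK7 made up 7479 of the 14725 summed UMIs in PPDO 1 and 30303 of 39501 in PPDO 2, so the ranking is largely one of likeness to KLK7. CNFN (cornifelin), IVL and CYSRT1 belong to the cornified envelope, and SLPI is a secreted protease inhibitor that can block KLK7. The kallikreins KLK8, KLK9 and KLK10 were in places 13, 14 and 15. Cells with a protease UMI had more of 7 of the 8 suprabasal markers than other cells in both libraries, for example KRTDAP at 2054 against 163 CPM in PPDO 1 and at 3660 against 253 CPM in PPDO 2. All 6 proliferation markers matched were lower in these cells in both libraries. Basal markers were mixed, with KRT5 higher and 4 of 6 lower.

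The 2 member kallikreins sit in a row of 13 kallikrein genes on chromosome 6, and the row differed between the PPDO libraries gene by gene. This grouping was made after the values were seen. Of 12 kallikreins with at least 50 UMIs, 9 were more than 2 times higher in PPDO 2, against 2.41% of the 20910 genes with at least 50 UMIs (4.01% of them were more than 2 times lower). These included KLK8 (2.37 and 19.7 CPM, ratio 8.33), KLK9 (1.92 and 21.1 CPM), KLK10 (6.25 and 46.8 CPM, ratio 7.49), KLK11 (0.914 and 7.16 CPM, ratio 7.83), KLK13 (0.681 and 3.23 CPM, ratio 4.75) and KLK14 (2.05 and 12.3 CPM). The exceptions were KLK1 (ratio 1.02), KLK5 (1.85) and KLK12 (0.892, counting interval 0.763 to 1.04), which lies between KLK11 and KLK13. Counted on gene bodies without extensions, the ratios of KLK8 and KLK10 were 8.55 and 8.54. Inside cluster 6 the ratios were 5.75 for KLK8, 7.09 for KLK9, 7.33 for KLK10 and 5.33 for KLK14. Outside it they were 8.49, 11.9, 5.19 and 2.02. KLK6, also among the 9, had a ratio of 4.04 inside cluster 6 and 0.835 outside it, at 0.0484 and 0.0404 CPM.

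**Figure D5:**
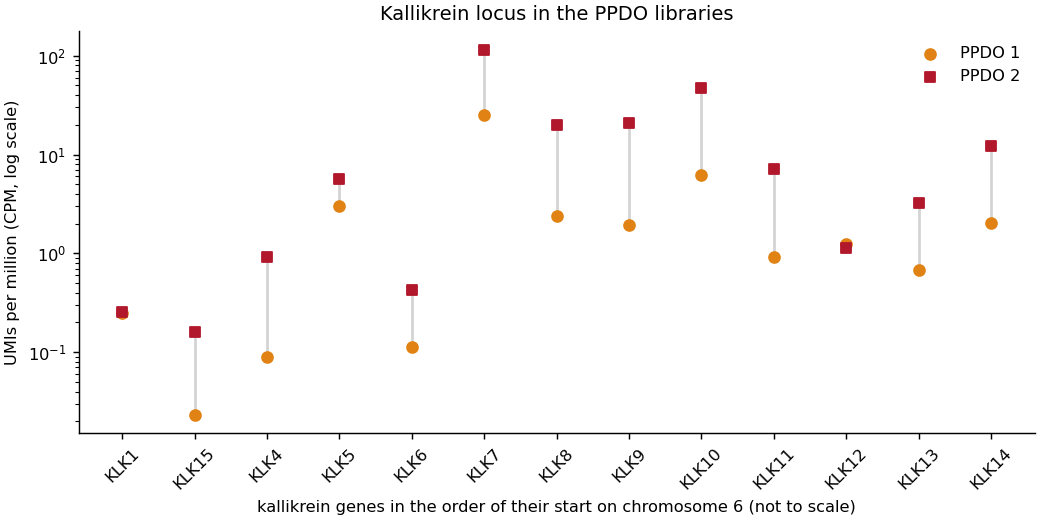
Level of the 13 kallikrein genes in PPDO 1 and PPDO 2 (CPM, log scale) in their order along chromosome 6. From KLK7 to KLK14 each gene except KLK12 is higher in PPDO 2, and KLK1 and KLK12 are at nearly the same level in both.

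The other genes of the pathway were tested, since the choice of the 6 did not use them. UMIs were summed per library, and PPDO was compared with primary ductal-like cells (43225900 and 25359900 UMIs) by edgeR's quasi-likelihood test over 23539 genes with Benjamini-Hochberg adjustment. Over all genes 22.9% were higher and 20.9% lower in PPDO. Of 48 list genes, 43 were matched and 40 tested, and 17 were higher and 5 lower in PPDO. Of these 40, 10 had at most 10 UMIs in ductal-like cells, entered the test through their PPDO counts and could only be called higher, as 7 of them were. Among the other 30, 10 were higher and 5 lower. Fitted changes are 0.46 log2 units above those of plain library totals because of TMM scaling. This shift turned the sign of 4 tested list genes and of 0 called ones. The lists were drawn up with results of these data known. Without PPDO replicate 2, or without primary pancreas replicate 2, 11 list genes were higher.

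The other kallikreins are listed as a description, since all called ones but KLK10 were among those with at most 10 UMIs in ductal-like cells, and their p-values carry that limit. Of 9 tested, 7 were higher and 0 lower in PPDO, against 22.9% and 20.9% of all genes tested. The median log2 fold change of the 9 was 5.17. KLK9 had 0 UMIs in ductal-like cells of both libraries and was at least 248-fold higher in pooled PPDO, measured against a floor of 3 counts over the group (adjusted p = 0.0332, edgeR). This bound rests mostly on PPDO 2, since KLK9 was at 1.92 CPM in PPDO 1 and 21.1 CPM in PPDO 2. KLK14, a trypsin-like protease of the epidermis, had 5 UMIs in ductal-like cells and was higher by 7.08 ± 1.31 log2 units (SE, adjusted p = 0.0137, edgeR). KLK8, another epidermal protease, had 8 UMIs in ductal-like cells, and its pooled CPM was 89.6 times higher in PPDO (counting interval 45.5 to 208, adjusted p = 0.0176, edgeR). This ratio too rests mostly on PPDO 2, since KLK8 was at 2.37 CPM in PPDO 1 and 19.7 CPM in PPDO 2. KLK6 missed the threshold at 0.113 and 0.427 CPM in PPDO and 1 UMI in ductal-like cells (adjusted p = 0.0572, edgeR), and passed without PPDO replicate 1 (0.0453). All PPDO values lay above all ductal-like values for KLK8, KLK9 and KLK14. Without primary pancreas replicate 1, and likewise without primary pancreas replicate 2, KLK8, KLK9, KLK10, KLK11, KLK13 and KLK14 missed the threshold (adjusted p between 0.0602 and 0.104, edgeR), and KLK13 also without PPDO replicate 2 (0.0678). The seventh, KLK12, named after its values were seen, was at 1.26 and 1.12 CPM in PPDO with 2 and 1 UMIs in ductal-like cells.

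Of 8 inhibitors tested other than SPINK5, 1 was higher and 0 lower, against 22.9% and 20.9% of all genes tested. SPINK6, SPINK7 and SPINK9 had SEs of 0.82, 0.73 and 0.46 log2 units, so that only large changes could have passed. The gene that was higher was SLPI, at 148 and 284 CPM in PPDO and 3.56 and 2.60 CPM in ductal-like cells, higher by 6.57 ± 0.53 log2 units (SE, adjusted p = 0.00157, edgeR). Cluster 6 held 71.8% and 77.1% of the SLPI UMIs. A2ML1, an inhibitor of the alpha-2-macroglobulin family, was at 1.79 ± 0.437 CPM in PPDO and 1.68 ± 0.247 CPM in ductal-like cells (SD, n = 2) (log2 fold change 0.56 ± 0.34, adjusted p = 0.235, edgeR).

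Proteases that act beside the kallikreins went both ways, with 2 of 9 tested higher and 4 lower, against 22.9% and 20.9% of all genes tested. Without either PPDO library the lower CTSL, CTSV and MEP1B missed the threshold (adjusted p up to 0.211, edgeR) and PRSS8 passed. CTSC, a lysosomal dipeptidyl peptidase, was higher by 2.94 ± 0.64 log2 units (86.4 and 142 CPM against 28.5 and 10.8 CPM, adjusted p = 0.0215, edgeR). CAPN1, a calcium-dependent protease, was higher by 0.88 ± 0.15 log2 units (adjusted p = 0.0116, edgeR). PRSS8 (prostasin, a membrane-bound serine protease of the matriptase pathway) fell by 2.86 log2 units with an SE of 0.16, from 75.3 and 91.4 CPM in ductal-like cells to 9.32 and 7.35 CPM in PPDO (adjusted p = 0.000815, edgeR). CTSC and CAPN1 missed the threshold without PPDO replicate 2 (adjusted p = 0.0835 and 0.0928, edgeR), and CAPN1 also without PPDO replicate 1 (0.0661). PRSS22, a tryptase, did not pass (log2 fold change 0.24 ± 0.16, adjusted p = 0.276, edgeR). F2RL1, which encodes the receptor PAR2 that KLK5 can cut and activate, was at 31.2 and 27.9 CPM in PPDO and 52.8 and 29.4 CPM in ductal-like cells (log2 fold change -0.06 ± 0.38, adjusted p = 0.909, edgeR), and passed without primary pancreas replicate 2 (0.0430).

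Desmosome genes outside the set had 7 of 13 tested higher and 1 lower in PPDO, against 22.9% and 20.9% of all genes tested. Without PPDO replicate 2, DSP, JUP and PKP3 were no longer called higher (adjusted p 0.112, 0.0776 and 0.0518, edgeR), and without PPDO replicate 1 the same held for DSP and DSG4 (0.111 and 0.0506). DSG3, the desmoglein of basal layers of stratified epithelia, was at 254 and 290 CPM in PPDO and 0.324 and 0.907 CPM in ductal-like cells, higher by 9.35 ± 0.48 log2 units (adjusted p = 0.000633, edgeR). PKP1, a plakophilin of stratified epithelia, was at 42.2 and 52.8 CPM against 0.116 and 0.0789 CPM. With only 5 and 2 UMIs in ductal-like cells it too could only be called higher, and its pooled CPM was 462 times higher in PPDO (counting interval 224 to 1148; adjusted p = 0.000393, edgeR). PERP, a desmosomal membrane protein under the control of p63, was higher by 3.99 ± 0.22 (1365 and 1467 CPM against 128 and 115 CPM, adjusted p = 0.000730, edgeR). DSG2, the desmoglein of simple epithelia and here the list gene that fell, decreased by 0.72 log2 units (66.3 and 49.8 CPM against 117 and 147 CPM, adjusted p = 0.0239, edgeR), and missed the threshold without either PPDO library (0.0613 and 0.151) or without primary pancreas replicate 2 (0.0527). PKP2 was at 132 and 108 CPM in PPDO and 202 and 396 CPM in ductal-like cells (log2 fold change -0.83 ± 0.27, adjusted p = 0.0678, edgeR), and passed without primary pancreas replicate 1 (0.00876). DSG3 was less confined to cluster 6 than DSG1, with 7.88% and 11.6% of its UMIs there against 71.1% and 81.7% for DSG1. Its level was still highest in cluster 6, at 516 and 597 CPM against 260 and 291 CPM in cluster 0. It was lowest in cluster 8, at 28.1 and 61.5 CPM.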

How the data were processed

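The authors sequenced 10x Chromium 3' libraries of sorted live cells. Cell Ranger then gave the deposited UMI counts, whole numbers for each barcode and each feature of a pig annotation the authors had extended at 3' ends, without the correction for free RNA that the study made later. The other deposited tables, of unit other, hold barcode and feature names. The labels' processing notes name the builds GRCh38 and Sscrofa11.1. Gene positions and distances are from RefSeq on Sscrofa11.1, and no sequences are shown.

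Features of 1 gene were summed, 56060 features giving 30282 identifiers. PPDO cells had at most 3% mitochondrial UMIs and 1000 to 9000 features. Primary cells had at most 8% mitochondrial UMIs and 9000 features, with at least 400 features in primary pancreas 1 and at least 800 features and 3000 UMIs in primary pancreas 2. Scrublet scores over 0.25 and 0.15 removed 89 and 154 primary cells. No doublets were removed from PPDO, where 1.31% and 1.23% of cells scored over 0.25. Clusters were made with Scanpy 1.11.5 and leidenalg 0.10.2 (2000 variable genes, 20 components, 15 neighbours, resolution 0.5, natural log after scaling to 10000 UMIs and a pseudocount of 1). Exact Poisson and Clopper-Pearson intervals at 95% cover counting error only.

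Sums of counts were compared with edgeR 4.0.16 (TMM, filterByExpr, glmQLFit, glmQLFTest, FDR 0.05), with DESeq2 1.42.0 as an alternative. The fit was also run on counts simulated at a dispersion of 0.05, where it recovered 82% of 200 changed genes with 7 false calls. The fit of the data had a common coefficient of variation of 0.302, the square root of its dispersion. The simulation was thus less variable than the data and does not give the error rates of this test. The SE is the absolute log2 fold change over the square root of F. By the study's methods the libraries of a group came from separate pigs or lines, which the labels do not tie to replicate numbers. The 6 genes and all lists were chosen with earlier results of these data known. In each list the text names the 3 called genes with the largest change and at least 5 CPM in either group, and the largest that missed the threshold.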

Additional observations from a re-analysis of the deposited data

How the results depend on the processing

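Of 113 repeats of 30 values under other settings, 70 stayed within set limits. The limits were the SD of the PPDO libraries, the counting interval (UMIs in primary cells) or 1.5 times the count of called genes. Levels, shares of cells and counts cannot change sign, so no count of reversals is given. Leaving out 1 PPDO library gave 44 further values that are the levels of the other library and say nothing of stability (KLK7 is at 24.8 or 115 CPM). Without extension features KLK5 was at 1.40 CPM and DSG1 had 15 UMIs in primary cells. SPINK5 was at 14.5 CPM over all barcodes, and CDSN at 2.34 CPM as a mean of single cells. Without thinning, the mean share of PPDO cells with a UMI was 9.93% for KLK5, 3.02% for SPINK5, 1.81% for CDSN, 5.37% for DSG1 and 2.08% for DSC1. At 3000 UMIs it was 1.12%, 1.12%, 0.346% and 1.21% for KLK5, SPINK5, CDSN and DSG1. Co-detection ratios without thinning were 2.78 for KLK5 with KLK7, 2.39 for KLK5 with SPINK5, 2.00 for KLK5 with CDSN, 2.45 for KLK5 with DSG1, 4.10 for KLK7 with SPINK5 and 3.99 for KLK7 with DSG1. At 3000 UMIs they were 4.15, 7.59, 1.91 and 2.07 for KLK5 with SPINK5, CDSN, DSG1 and DSC1, and 11.2 and 11.3 for KLK7 with SPINK5 and DSG1. With 2 UMIs as the limit they were 16.6, 17.6, 46.3, 13.8 and 33.6 for KLK5 with KLK7, SPINK5, CDSN, DSG1 and DSC1, and 12.5, 21.2, 17.0 and 18.9 for KLK7 with SPINK5, CDSN, DSG1 and DSC1. The cluster richest in the 6 genes held 75.8% of their UMIs at resolution 0.3 and 74.6% with the 6 kept among the clustering genes. These ratios are means of the PPDO libraries and all exceed 1, although at 3000 UMIs KLK5 shared 0 cells of PPDO 1 with DSG1 and 0 with DSC1.

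Of the tested list genes, 5 were lower in PPDO. That count was 2 with the replicate block, 1 against all primary cells and 3 after thinning of the sums, which leaves fewer genes to test. Leaving out 1 library gave 11 to 17 list genes higher and 1 to 6 lower, with 1 lower without either PPDO library. The lone sample of a group was then assumed to vary like the other group. The study gives no pairing of PPDO lines with primary pigs, so libraries of the same replicate number were not treated as pairs. The deviations of same-numbered libraries had a correlation of -0.00081 over 11200 genes. With 1 difference between libraries in each group, this value cannot decide on pairing. With the replicate block 18 list genes were higher, and over all genes 8143 were called in place of 10302. DESeq2 called 20 higher and 6 lower. The cause of these changes was not tested. The ratios of KLK5 and KLK7 to ductal-like cells each rest on 1 UMI there.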
